A study of Mus musculus with 24 samples.

Results

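The livers described here are those of the 8 untreated mice that carried the C26 colon carcinoma, out of 24 livers sequenced in the study. They were chosen by the labels alone, as the columns of the group named C26, and no measured value took part in the choice. All 8 animals were CD2F1 mice, bore the transplanted tumour, which causes wasting (cachexia), and received no cholestyramine, the bile acid binding resin given to another group of the study. The labels used here give no age, sex, tumour weight, food intake, time of day at dissection or batch for them. RNA was measured in whole frozen liver, so fewer cells of a type and less RNA per cell cannot be told apart. The question put to these 8 livers was which genes stand highest in the cachectic liver, and which genes and functions go up and down together from mouse to mouse within 1 group.

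Inflammatory cytokines, above all IL-6, act on hepatocytes through the transcription factor STAT3, and IL-1 acts through NF-kB. The hepatocyte answers with the acute phase response: it secretes serum amyloid A, fibrinogen, haptoglobin, hemopexin and protease inhibitors in large amounts and lowers the output of many metabolic enzymes. Cholesterol synthesis, the response to amino acid shortage, interferon signalling and the circadian clock are separate control systems of the same cell, each with its own transcription factors.

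Between 19.9 M and 29.1 M reads per library were recovered from the deposited values, with C26 1 the deepest and C26 2 the shallowest. Pairs of libraries differed by more than counting error, with chi-square per degree of freedom from 6.97 to 33.3 over the 28 pairs. The 9 hepatocyte markers summed to 57252 to 64465 CPM, which are reads scaled to a common library total, so the labelled tissue carried its markers in every library. The first principal component held 24.3% of the variance of the 13924 genes tested. It set C26 7 (score -30.48), C26 6 (-19.95) and C26 3 (-5.54) apart from the other 5 mice (8.07 to 15.98). The same 3 libraries had lower values for short transcripts relative to long ones. Their log2 level changed per doubling of transcript length by 0.093 (C26 7), 0.048 (C26 3) and 0.036 (C26 6) relative to the mean of the 8 libraries, against -0.045 to -0.028 in the other 5. RNA integrity values per mouse were not used here, and this length trend is given again below beside the scores.

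Plasma proteins of the acute phase stood at the top of the cachectic liver. Per transcript length, in TPM (reads per length, scaled to a common total), Saa2 ranked first with 70564 ± 6919 and Saa1 second with 70453 ± 5805 (mean ± SD, n = 8). Both encode serum amyloid A, a lipoprotein-bound acute phase protein. The heme scavenger hemopexin, Hpx, followed with 51425 ± 2965 TPM, and haptoglobin, Hp, which binds free hemoglobin, had 36156 ± 839 TPM. The order of Saa1 and Saa2 was within their spread, and Hpx lay in rank 3 or 4 in every mouse. Fibrinogen chains Fgg (28304 ± 1999 TPM) and Fga (21834 ± 1613 TPM) ranked sixth and seventh, and Fgb (13788 ± 766 TPM) had rank 10. The others among the 15 highest were the acid glycoprotein Orm1, the protease inhibitors Serpina1a and Serpina3n, the inhibitor chain Itih4, complement C3, the mitochondrial mt-Co1 and the predicted genes Gm23935 and Gm42418. Gm23935 is 57 bases long in the annotation, which makes its level per length, 40948 ± 11925 TPM, the least firm of the 15.

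By share of reads, which is not corrected for length, Hpx led with 4.60% ± 0.262, before Fga with 3.37% ± 0.227 and Fgb with 3.13% ± 0.132 (SD, n = 8). Serpina3k, a protease inhibitor, Pzp, a broad protease inhibitor of plasma, and its relative A2m joined the 15 largest shares. The 15 genes with the largest shares took 33.7% to 36.5% of all reads, and the 100 largest took 57.1% to 59.6%. Albumin, Alb, the main plasma protein of the healthy animal, held 0.810% to 1.36% of reads, highest in C26 6 and C26 8. The acute phase genes together, with Saa1, Saa2, Lcn2 and A2m, held 32.4% (C26 8) to 35.7% (C26 1) of reads.

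Saa1 and Saa2 went together, and Lcn2 and A2m each had another order of mice. Saa1 (chromosome 7, 46740497 to 46742980, GRCm38) had values of 682533, 672999, 616794, 744367, 694191, 590228, 526344 and 667172 in C26 1 to 8. Saa2 (chromosome 7, 46751790 to 46754313) had 745643, 740420, 648209, 804236, 759056, 623834, 543507 and 708220 in the same order. Both were lowest in C26 7, then C26 6, then C26 3, and highest in C26 4. Lcn2 (chromosome 2, 32384633 to 32388252), which encodes the siderophore-binding protein lipocalin 2, had 64679, 67888, 59645, 62957, 71727, 72744, 50368 and 53243. Lcn2 was lowest in C26 7, as were Saa1 and Saa2, but highest in C26 6, where Saa1 and Saa2 were second lowest. A2m (chromosome 6, 121635376 to 121679227), the protease inhibitor alpha-2-macroglobulin, had 372525, 325058, 281080, 217024, 245130, 346368, 282170 and 237703. It was lowest in C26 4, where the serum amyloid genes were highest.

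Over the 8 mice, r between Saa1 and Saa2 was 0.99 (exact permutation test, two-sided, p = 2.48e-05, adjusted p = 0.000149 over 6 pairs; rho = 1.00, exact p = 4.96e-05, adjusted p = 0.000298). Without the 2 mice farthest from the median of Saa1 it was 0.98. No other pair of the 4 genes passed, which over 8 mice does not show that they were independent. Saa2 had r = 0.48 with Lcn2 and -0.27 with A2m (exact permutation adjusted p = 0.501 and 0.519). Saa1 and Lcn2 had r = 0.43 (rho = 0.31, exact permutation adjusted p = 0.501 and 0.462), Saa1 and A2m had r = -0.34 (rho = -0.38, exact permutation adjusted p = 0.501 and 0.462), and Lcn2 and A2m had r = 0.33 (rho = 0.38, exact permutation adjusted p = 0.501 and 0.462). The counting tool is not given in the sources used here, so reads of the near-identical Saa1 and Saa2 may have been shared between them, and their r is uncertain as a relation of 2 genes.

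**Figure D1:**
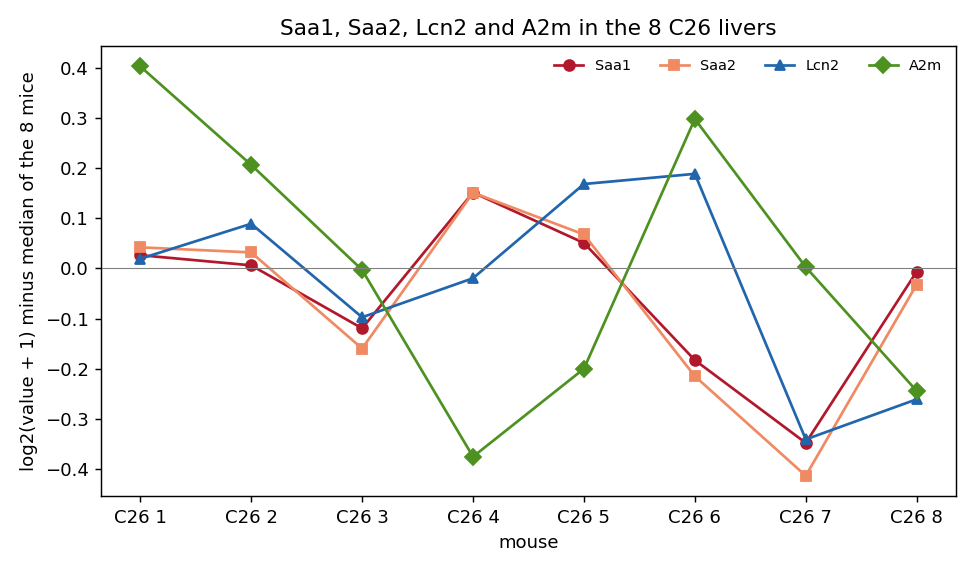
Level of Saa1, Saa2, Lcn2 and A2m in each of the 8 C26 livers (horizontal axis), as log2 of the deposited value plus 1 minus its median over the mice (vertical axis); each point is 1 mouse, and lines only join the points of a gene. Saa1 and Saa2 overlie each other with their minimum in C26 7, and A2m is highest in C26 1 and lowest in C26 4.

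The 2 serum amyloid genes also have closely similar promoter windows. The RefSeq windows on GRCm38.p6, from 250 bases before the gene start to 50 after it, matched in 287 of 301 aligned positions (95.3%, with 2 gaps). They are printed because the pair had the highest r of the 6 pairs among the genes of the acute phase score; Saa1 lies on the minus strand at chr7:46742931-46743230 and Saa2 on the plus strand at chr7:46751583-46751882, and capitals mark matches to the C/EBP motif TTNNGNAA on either strand.
Saa1: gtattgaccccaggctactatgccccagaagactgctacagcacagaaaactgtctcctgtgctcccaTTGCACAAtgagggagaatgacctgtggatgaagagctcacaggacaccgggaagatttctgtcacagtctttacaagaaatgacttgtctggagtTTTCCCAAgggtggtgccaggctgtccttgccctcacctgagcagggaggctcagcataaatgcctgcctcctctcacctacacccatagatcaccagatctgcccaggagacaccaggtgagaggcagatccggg
Saa2: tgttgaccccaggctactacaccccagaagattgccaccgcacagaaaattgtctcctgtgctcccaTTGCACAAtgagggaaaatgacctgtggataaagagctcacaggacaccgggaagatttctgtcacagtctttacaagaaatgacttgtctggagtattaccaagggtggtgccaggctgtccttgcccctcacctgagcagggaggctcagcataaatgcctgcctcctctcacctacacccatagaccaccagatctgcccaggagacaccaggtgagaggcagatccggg
Saa1 held 2 such matches and Saa2 1. The motif is common: 44.1% of 27025 genes with a window held it, and so did 14 of the 22 acute phase genes that had one. The STAT motif TTCNNNGAA, which can overlap the C/EBP motif, was found in 6 of the 22, namely Apcs, Fga, Fgb, Hamp, Itih4 and Steap4, and in 9.55% of all genes. A match is a stretch of letters, not a measured binding site.

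The mean log2 value of Saa1, Saa2, Lcn2 and A2m served as an acute phase score. It was lowest in C26 7 (17.95), had a median of 18.22 and was highest in C26 1 (18.34), a range of 1.32-fold. No gene was called with it (0% of 13920 genes rising, 0% falling) in the limma regression of each gene on the score with Benjamini-Hochberg adjustment, where a call means an adjusted p under 0.05. The lowest adjusted p was 0.225. At an unadjusted p under 0.05 stood 1726 genes (12.4%), and the quasi-likelihood test of edgeR on the recovered reads called 0. Without C26 7 there were 3 called genes and without C26 6 there was 1. A p that misses the threshold over 8 mice does not show that these genes were independent of the score.

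The genes with the smallest p against the score are given as values, since none was called. With positive slopes these included Apoc2, the lipoprotein lipase cofactor (r = 0.94), the neurotrophin receptor Ntrk2 (r = 0.92), Stap1 (r = 0.94), Tma7 (r = 0.96), the mitochondrial mt-Nd6 (r = 0.91) and mt-Nd3 (r = 0.88), and the ribosomal protein Rps21 (r = 0.89). With negative slopes they were Abcg5, a subunit of the sterol exporter of the canalicular membrane (r = -0.92), Arl13b (r = -0.93), Lyst, a regulator of lysosome traffic (r = -0.95), Klhl24 (r = -0.93), Jade1 (r = -0.88), Tmc5 (r = -0.88), Arid5b (r = -0.89) and Nrp1 (r = -0.96). Adjusted p in limma ran from 0.225 to 0.342 over these genes. Abcg5 had 585, 628, 829, 865, 665, 862, 1193 and 894 in C26 1 to 8, so the mouse with the lowest acute phase score, C26 7, had the highest value of the exporter. Its partner subunit Abcg8 had r = -0.81.

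Within the acute phase list, 25 of 29 tested members had a positive r with the score, and the median was 0.44 against 0.03 over all genes tested. The list holds none of the 4 score genes. Its summed level was highest in C26 7, the mouse with the lowest score, at 283634 CPM against a median of 276663. The mean log2 level of the list was 15.30 in C26 7, in a range from 15.20 (C26 8) to 15.48 (C26 6). Of the 29, 0 were called in either direction, and 5 stood at an unadjusted p under 0.05, all with a positive slope. Orm2 had r = 0.94, Orm1 0.93 and Serpina3m 0.88. Orm1 and Orm2 belong to a near-identical family and are uncertain as single genes. Orm1 went from 184814 (C26 7) to 241728 (C26 2). Genes of IL-6 and STAT3 signalling had a median r of -0.01 over 16 members, 7 of them with a positive r and 0 called. By smallest p, Bcl3, an NF-kB partner, had r = 0.63 (rho = 0.31). Junb and Pim1, both targets of STAT3, had r = 0.46 each (rho = 0.24 and 0.31). Genes of IL-1 and NF-kB signalling had a median of 0.29 over 17 members, 13 of them with a positive r and 0 called. The adaptor Myd88 had r = 0.97 (626 in C26 7 to 878 in C26 1, adjusted p = 0.342 in limma). Nfkb2 had r = 0.70, and Ikbkg went the other way with r = -0.78 (adjusted p = 0.348 each in limma).

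Of 12 further genes set against the score one by one, none passed adjustment over the 12 in an exact permutation test, where the lowest adjusted p was 0.541 for r and 0.278 for rho. Saa3, the serum amyloid gene that macrophages and adipocytes also make, went from 6810 (C26 3) to 18027 (C26 1), with r = 0.65 and rho = 0.71. Socs3, the feedback inhibitor of IL-6 signalling, went from 5044 (C26 8) to 6318 (C26 5), with r = 0.45. Stat3 went from 5649 to 6734 with r = 0.14, and the oncostatin M receptor Osmr from 857 to 1192 with r = -0.45. The highest mouse was 1.25, 1.19 and 1.39 times the lowest for Socs3, Stat3 and Osmr, and 2.65 times for Saa3. Hamp, the iron hormone hepcidin, had r = 0.12, Alb 0.14 and transthyretin, Ttr, 0.18. The growth factor Igf1 had r = -0.63 (-0.81 without the 2 mice farthest from the median score), the hormone Fgf21 0.22, and the bile acid enzymes Cyp7a1, Cyp8b1 and Cyp27a1 -0.47, -0.33 and -0.17.

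Among the function lists the highest median r with the score belonged to genes of mitochondrial and ribosomal machinery. Mitochondrially encoded mRNAs had a median r of 0.77 over 13 members and cytosolic ribosomal proteins 0.68 over 40, with 0 called in each. Amino acid catabolism and the urea cycle had -0.60 over 22 members, also with 0 called. Cps1, the first enzyme of the urea cycle, went from 17407 in C26 1 to 40361 in C26 7. The median r with the score fell with transcript length, from 0.39 over the 1518 genes under 1 kb to -0.37 over the 1525 genes above 6 kb. The part of the length trend in these lists was not tested; with the trend as a covariate, 5 genes were called with the score.

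The pair Saa1 and Saa2 was then taken as a score of its own, a choice made after the 4 genes had been seen to differ. Of 13922 genes, 279 rose with it (2.00%) and 166 fell (1.19%). Among those rising with it, 82 of 279 were pseudogenes and 38 had names of ribosomal proteins, where all 13922 genes tested held 860 and 201 of these, and 8 of 40 cytosolic ribosomal protein genes of the list rose. Those with the largest slopes were the major urinary protein Mup13 (slope 3.23 log2 units per log2 unit of the score, r = 0.79), mt-Atp8 (3.21), Mien1 (3.11) and Atpif1, the inhibitor of the mitochondrial ATP synthase (2.84). Reg3g, a secreted lectin, fell with a slope of -3.23, the leptin receptor Lepr with -2.89, the RNA exonuclease Xrn1 with -2.10 and Arhgap5 with -2.01. Adjusted p in limma lay between 0.0295 and 0.0498 for these 8 genes.

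The called genes differed in transcript length. Rising genes had a median transcript length of 878.5 bases and falling genes of 5992, against 2802.5 over all genes tested with a length. Libraries C26 7, C26 6 and C26 3 had the lowest Saa1 and Saa2 and the 3 positive length trends. No gene was called in limma after values were corrected for transcript length (1465 at an unadjusted p under 0.05, of 3069 before), nor with the length trend as a covariate (735), nor when C26 2 (2761), C26 6 (2576) or C26 7 (2027) was left out. Without C26 1 there were 131 called genes, and without C26 3, C26 5 and C26 8 there were 256, 253 and 286; edgeR on the recovered reads called 345. The transcripts of Saa1 and Saa2 are themselves short, 609 and 652 bases, so their level and the length trend cannot be told apart in these libraries.

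**Figure D2:**
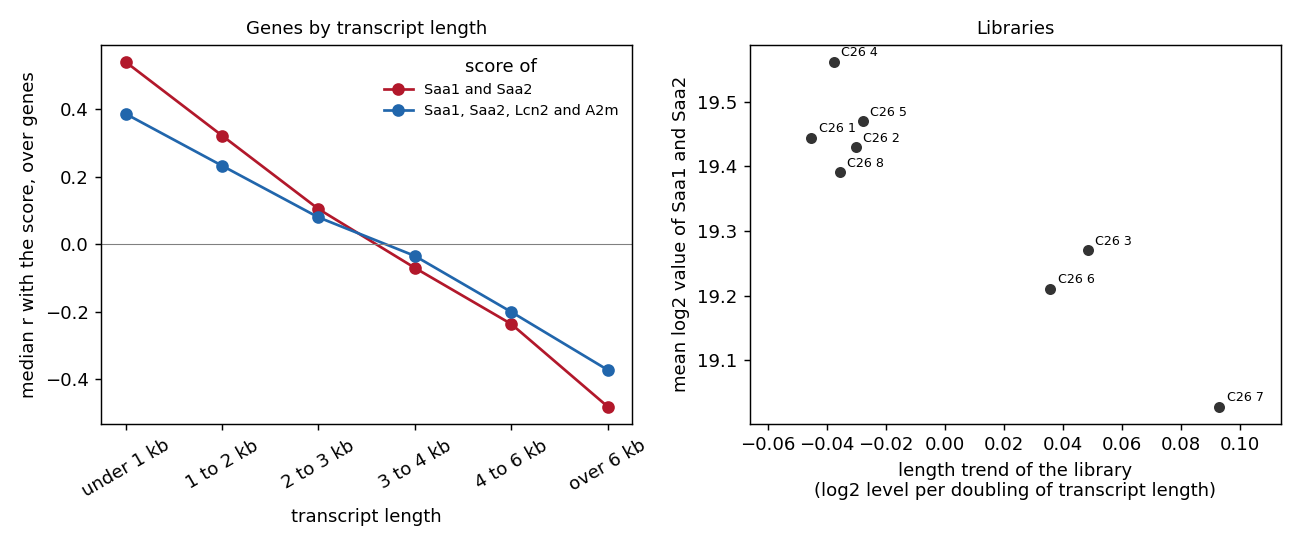
Left, median r with 2 scores over genes in 6 bins of transcript length (vertical axis, r; horizontal axis, length). Right, the mean log2 value of Saa1 and Saa2 in each library (vertical axis) against the length trend of that library in log2 level per doubling of transcript length (horizontal axis). Median r falls from 0.54 to -0.48 for the score of Saa1 and Saa2, and C26 3, C26 6 and C26 7 lie to the right and low.

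Cholesterol synthesis varied as a block. Its score was the mean log2 value of 4 genes, among them Hmgcs1, an early enzyme of the pathway, Sqle, squalene epoxidase, and Idi1, an isomerase of the isoprenoid units. Hmgcs1 had 2982, 2863, 3265, 2591, 4898, 3953, 1666 and 3153 in C26 1 to 8. Sqle had 2074, 2148, 2298, 2114, 3408, 2864, 1565 and 2255. Idi1 ranged from 1177 to 3200. C26 5 was highest and C26 7 lowest in each of these genes, and the score ran from 10.51 to 11.70. These enzymes are switched on by the factor SREBP2, which reads the sterol regulatory element when membrane sterol is low.

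The promoter window of Hmgcs1 (RefSeq, GRCm38.p6, chr13:119690101-119690400, plus strand) is shown with the match to the element in capitals, searched as TCACNCCAC on both strands.
Hmgcs1: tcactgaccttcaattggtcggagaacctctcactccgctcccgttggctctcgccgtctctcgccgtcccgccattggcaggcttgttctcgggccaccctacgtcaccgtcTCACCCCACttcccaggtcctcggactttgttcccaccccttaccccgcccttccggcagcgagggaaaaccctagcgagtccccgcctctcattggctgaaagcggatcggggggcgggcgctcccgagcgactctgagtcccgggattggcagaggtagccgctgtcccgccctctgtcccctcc
Among the 17 of 25 sterol genes that had a window, 1 held these letters, against 1.44% of all genes. No match says only that these letters are not in that window.

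Of 13920 genes, 3 rose with the sterol score (0.0216%) and 0 fell (0%), and all 3 are enzymes of the later steps from lanosterol to cholesterol. At an unadjusted p under 0.05 stood 568 genes, and edgeR called 11, all rising. Msmo1, a sterol C4-methyl oxidase, had 2539, 2582, 2547, 2413, 3898, 3120, 1642 and 2622 in C26 1 to 8 (slope 1.03, SE 0.0944, r = 0.99, limma adjusted p = 0.00333). Cyp51, the lanosterol demethylase, went from 1148 to 2850 (slope 1.06, SE 0.112, r = 0.98, limma adjusted p = 0.00735). Nsdhl, the next dehydrogenase of that branch, went from 392 to 1112 (slope 1.19, SE 0.140, r = 0.96, limma adjusted p = 0.0135). Each was highest in C26 5 and lowest in C26 7, and C26 6 was second highest. Slopes near 1 mean that a gene moved about as far as the score.

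Of the 21 tested genes of the sterol list that are not in the score, 20 had a positive r, with a median of 0.87 against 0.02 over all genes tested, and 18 stood at an unadjusted p under 0.05 with a positive slope. The mevalonate kinase Mvk had r = 0.96 (limma adjusted p = 0.0506). Genes with negative slopes were not called: the epithelial cadherin Cdh1 had r = -0.95 (adjusted p = 0.137 in limma), Sgms2, a sphingomyelin synthase, -0.91, Agtpbp1 -0.92 and Taok3 -0.84. Without C26 5 (494 genes at an unadjusted p under 0.05), without C26 7 and without both (1302), 0 genes were called in limma, so the calls rest on these 2 mice. Values of another kind moved with them: the median r with the score went from 0.28 for genes under 1 kb to -0.18 for genes over 6 kb, C26 7 had the most positive length trend, and C26 5 was the liver with pancreatic transcripts described below. Their part in the result was not tested.

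**Figure D3:**
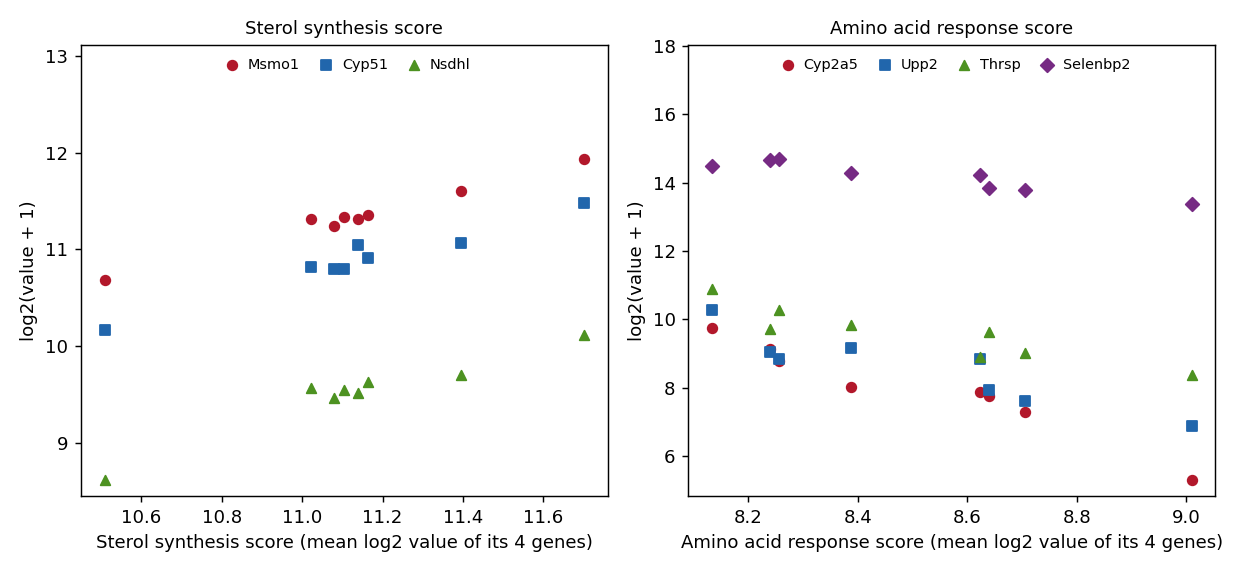
Level of called genes, as log2 of the deposited value plus 1 (vertical axes), against the sterol synthesis score (left) and the amino acid response score (right), each the mean log2 value of 4 genes; every point is 1 gene in 1 of the 8 mice. The 3 sterol genes rise by about as much as the score between C26 7 at 10.51 and C26 5 at 11.70, and Cyp2a5 drops from 862 to 38.1 in deposited value as the amino acid response score goes from 8.13 to 9.01.

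Most genes of drug metabolism and of the clock list had a negative r with the amino acid response score. When amino acids are short or the endoplasmic reticulum is stressed, the factor ATF4 turns on genes that make and import amino acids. The score used 4 of its targets: Asns, asparagine synthetase, Trib3, a pseudokinase that feeds back on the pathway, Psat1, an enzyme of serine synthesis, and Chac1, a glutathione-degrading enzyme. Asns had 797, 564, 485, 421, 476, 589, 631 and 339 in C26 1 to 8. Trib3 had 498, 346, 375, 328, 242, 278, 412 and 256. Psat1 ranged from 77.1 (C26 4) to 189 (C26 2) and Chac1 from 596 (C26 6) to 1015 (C26 1). C26 1 was highest in 3 of the 4 genes, and the score went from 8.13 in C26 8 to 9.01 in C26 1.

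Chac1 is shown because its promoter window (RefSeq, GRCm38.p6, chr2:119350992-119351291, plus strand) holds the amino acid response element TTGCATCA, in capitals, searched on both strands.
Chac1: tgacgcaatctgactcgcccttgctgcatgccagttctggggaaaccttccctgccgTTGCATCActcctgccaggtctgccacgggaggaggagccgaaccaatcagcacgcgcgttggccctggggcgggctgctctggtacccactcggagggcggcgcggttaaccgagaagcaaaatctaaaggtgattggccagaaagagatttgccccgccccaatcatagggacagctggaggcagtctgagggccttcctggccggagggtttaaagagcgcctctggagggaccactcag
Of the 21 genes of the list, 19 had a window and 4 of them held these letters, Atf3, Chac1, Fgf21 and Slc7a11, against 1.03% of all genes.

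Of 13920 genes, 10 fell with the amino acid response score (0.0718%) and 0 rose (0%), and edgeR called 9. At an unadjusted p under 0.05 stood 1053 genes, 410 with a positive and 643 with a negative slope. Cyp2a5, a P450 that oxidises coumarin and nicotine, had 38.1, 154, 214, 555, 436, 259, 231 and 862 in C26 1 to 8. It was lowest in C26 1 and highest in C26 8, and its order was the exact reverse of the order of the score (slope -4.44, SE 0.377, r = -0.97, limma adjusted p = 0.0011). Cyp2a5 has a near-identical neighbour, so its value as a single gene is uncertain. Upp2, a liver uridine phosphorylase, had 116, 195, 244, 522, 457, 575, 454 and 1234 (slope -3.27, SE 0.444, limma adjusted p = 0.0255). Thrsp, a factor of fatty acid synthesis, had 332, 521, 786, 834, 1237, 917, 474 and 1876 (slope -2.48, SE 0.339, limma adjusted p = 0.0255).

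The other 7 had smaller slopes, from -1.49 to -0.99. They were Selenbp2, a selenium-binding protein (10531 in C26 1 to 26215 in C26 5), the flavin monooxygenase Fmo5 (3149 to 7572), Ttc39c (926 to 2314), the medium-chain acyl-CoA synthetase Acsm5 (366 to 1005), Fdx1, the electron donor of mitochondrial P450 enzymes (375 to 738), the cation exporter Slc47a1 (478 to 1135) and the predicted gene Gm8941. All of these named with values had their lowest value in C26 1. Of genes with positive slopes none was called: Rras2 had r = 0.96 and Map4k3 0.90 (adjusted p = 0.071 each in limma), Slc4a3 0.87 and Slc35b3 0.91. C26 1 was also the deepest library, with 29.1 M reads against at most 24.5 M in the others, and with log2 total reads in the fit 3 genes were called. Without C26 1 there was 1 called gene, without C26 2 and without C26 8 there were 2 each, and without C26 7 there were 34. Markers of other cells moved with the score too: stellate and fibroblast markers had a positive r in 9 of 10 members (median 0.58, summed level 207 to 320 CPM) and sinusoidal endothelium in 9 of 10 (median 0.57, 318 to 427 CPM). The part of depth and of these cells in the result was not tested.

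Several lists of hepatocyte metabolism leaned against the score, and so did hepatocyte lists of other kinds. Hepatocyte markers had a median r of -0.52 over 9 members, complement and coagulation -0.53 over 27, and hepatocyte transcription factors -0.52 over 16. Fatty acid oxidation and glucose metabolism leaned less, with a median of -0.22 each. Phase I drug metabolism had 0 of 24 members with a positive r (median -0.65 against -0.02 over all genes tested), and Cyp2a5 and Fmo5 were called falling. Phase II transferases had a median of -0.72 over 18 members with 0 called, where the glutathione transferase Gsta3 had r = -0.88 and the sulfotransferase Sult1a1 -0.91. Fatty acid and triglyceride synthesis had -0.66 over 17 members, with Thrsp called and with r = -0.93 for both Acss2, which activates acetate, and Dgat2, which makes triglyceride. Bile acid synthesis had -0.52, with 0 of 15 members at a positive r and 0 called. Cyp7a1, its rate-limiting enzyme, had r = -0.88 (limma adjusted p = 0.071) and values of 17.3, 30.6, 59.8, 131, 66.6, 44.9, 46.2 and 300 in C26 1 to 8. Amino acid catabolism had -0.59 over 22 members, 0 called, with the transaminase Gpt at -0.91 and proline dehydrogenase, Prodh, at -0.90.

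The circadian clock list had the most negative median, -0.74 over 17 members, with 6 positive and 11 negative r and 0 called. Cry2, a repressor of the clock, had 357, 514, 439, 722, 701, 697, 622 and 719 in C26 1 to 8 (r = -0.92, limma adjusted p = 0.0611). The clock output factors Dbp and Tef had r = -0.84 and -0.83, and Dbp ranged from 81.4 (C26 1) to 562 (C26 8). The clock activator Arntl, chosen after its values were seen, had r = 0.72 and went the other way, from 71.2 in C26 5 to 326 in C26 1 and 348 in C26 3. Between the mean log2 levels of the amino acid response and clock lists, which share no gene, r was -0.95 (rho = -0.81, -0.90 without the 2 farthest mice), a description over 8 mice. C26 1, C26 2 and C26 3 had the 3 highest amino acid response means and the 3 lowest clock means. The time of day at dissection is not given in the labels used here, and its part was not tested.

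Interferon-stimulated genes varied little and at low levels. The score of Ifit1, Isg15, Irf7 and Usp18, an antiviral effector, a ubiquitin-like modifier, a transcription factor and a brake on the receptor, went from 6.14 (C26 6) to 6.95 (C26 8). Ifit1 had 39.0, 35.7, 38.2, 39.1, 34.4, 25.1, 27.7 and 60.01 in C26 1 to 8, and Irf7 had 161, 161, 176, 204, 153, 133, 122 and 251. C26 8 was highest in Ifit1, Irf7 and Usp18, and Isg15 was highest in C26 3 with 159. Of 13920 genes, 1 rose with the score (0.00718%) and 0 fell (0%). It was not an interferon gene but the P450 Cyp2c29 (slope 4.83, SE 0.585, r = 0.93, limma adjusted p = 0.0485), with 1457 in C26 8 against 80.5 to 371 in the other 7. At an unadjusted p under 0.05 stood 1081 genes, and edgeR called 13. Without C26 2, C26 4, C26 6 or C26 7 limma called 0 genes (742 to 1084 at an unadjusted p under 0.05), and without C26 1 it called 6. Without C26 8, and in both settings that account for transcript length, 1 gene was called but it was not Cyp2c29. The median r with the interferon score went from 0.29 over genes with transcripts under 1 kb to -0.18 over those above 6 kb, and C26 6 and C26 7, with the lowest scores, had positive length trends, as had C26 3 with a score of 6.65. The part of the length trend in the interferon values was not tested.

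All 17 tested members of the interferon list outside the score had a positive r (median 0.62 against 0.00 over all genes tested), with 0 called. The antiviral tether Bst2 and Ifi44 had r = 0.91 each. Phase I drug metabolism had a median of 0.60 over 24 members and the growth hormone and IGF list 0.64 over 15. The mean of the interferon list had r = 0.72 with the mean of each of these 2 lists. Without C26 8, the mouse with the highest interferon score, r was 0.39 with phase I drug metabolism and 0.46 with growth hormone and IGF. Akr1c6, Aox3 and Slc22a7, all enzymes or carriers of hepatocytes, had r = 0.93, 0.91 and 0.91 and were not called (limma adjusted p = 0.076 to 0.0883). With negative slopes Piga had r = -0.96, Raph1 -0.92, Rtn4rl2 -0.85 and Dpep2 -0.92, also not called. Neutrophil markers had negative r in 6 of 6 tested members (median -0.71). Between the means of the interferon list and the neutrophil markers r was -0.78. It was -0.71 without C26 8 and -0.26 without the 2 farthest mice.

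Most of the variation of single genes was small. The median coefficient of variation of the 13924 genes was 12.2%, and in 57.3% of them the highest mouse was less than 1.5 times the lowest. In 353 genes the ratio was at least 4. C26 8 was the highest mouse in 40 of the 100 most variable genes above a mean level of 50, against 1 to 16 for the other mice, although it was the highest in 11.4% of all genes at that level. The most variable genes are given as values without a test, since they were picked for their spread.

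C26 8 had high values of hepatocyte genes that stood low in the other 7. Cyp3a11, a main P450 of drug and bile acid hydroxylation, had 67.6, 85.5, 99.2, 106, 88.4, 76.3, 69.3 and 2392 in C26 1 to 8. Carbonic anhydrase Car3 had 3742 in C26 8 and 124 to 347 in the others. The male-biased steroid dehydrogenase Hsd3b5 had 383 against 10.4 to 59.9, and the growth hormone dependent carrier Slco1a1 849 against 55.4 to 169. The carboxylesterases Ces1f and Ces1d had 512 against 19.1 to 66.6 and 929 against 61.2 to 105. The sulfotransferase Sult2a8 had 1198 in C26 8 and 69.3 to 665 in the others, so it formed a series and not a gap. In each of these genes C26 8 lay above the other 7 mice.

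The same liver had the lowest means of the acute phase list (15.20, against 15.28 to 15.48) and of the chemokine list (7.19, against 7.30 to 8.45), and the highest mean of phase I drug metabolism (11.35, against 9.65 to 10.60). Its Saa1, at 667172, was near the median of 670085, and its Fga was the lowest of the 8. Cyp7a1 stood at 300, Cyp8b1, which sets the share of cholic acid, at 580, below C26 4 (878) and C26 3 (617), and Cyp27a1 at 2288, below C26 4 (2878). C26 4 and C26 8 thus had the highest bile acid synthesis means, 11.14 and 11.10, against 10.46 to 10.87. B cell and plasma cell markers were also highest in C26 8, at a sum of 11.8 CPM against a median of 5.45 over the 8 mice.

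**Figure D4:**
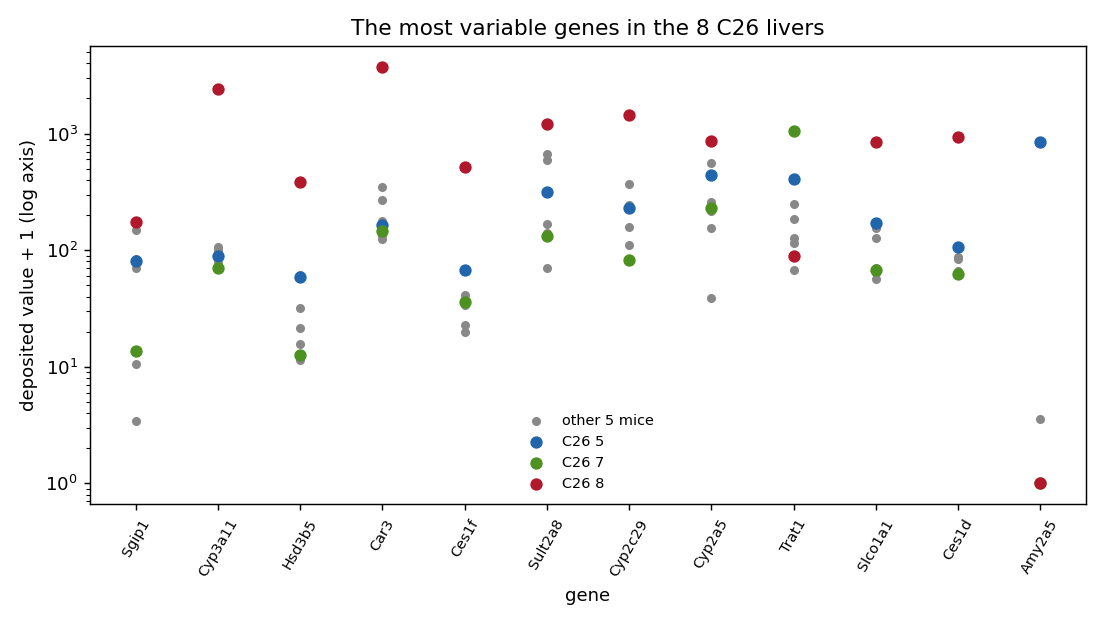
Deposited value plus 1 on a log axis (vertical) of 12 of the most variable genes (horizontal) in each of the 8 C26 livers; points are mice, with C26 5, C26 7 and C26 8 coloured. C26 8 stands above the others for Cyp3a11 at 2392 and Car3 at 3742, C26 5 alone is high for Amy2a5 at 852, and C26 7 is highest for Trat1 at 1058.

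Other single livers stood apart for other genes. Sgip1 ranged from 2.45 (C26 4) to 173 (C26 8) in no order shared with the scores (r from -0.06 to 0.39). Trat1, a T cell receptor adaptor, had 1058 in C26 7 against 66.4 to 408. T and NK cell markers summed to at most 1.82 CPM in any mouse, with the maximum in C26 8, so the value of Trat1 did not go with them. The pancreatic amylases Amy2a2, Amy2a3, Amy2a4 and Amy2a5 had identical values in every library, as near-identical copies counted alike. They had 852 in C26 5, 2.55 in C26 2 and 0 in the other 6. The acinar enzymes Cpa1, Prss2 and Pnlip were at 48.2, 65.4 and 78.1 in C26 5 and at 0 in the other 7. The summed acinar markers were 49.5 CPM in C26 5 against a median of 5.13 over the 8 mice. In livers where these enzymes and Amy2a5 were at 0, that sum came from the other list members, Cela1 and Cela2a. C26 5 was the liver in which exocrine pancreas transcripts were found at these levels.

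The list means of neutrophil markers (7.17) and of chemokines and adhesion (8.45) were highest in C26 6. S100a8 and S100a9, the calcium-binding proteins of neutrophils, were at 239 and 275 in C26 6 against 42.8 to 111 and 53.8 to 155 in the other mice. Sele, the selectin of activated endothelium, was at 153 against 13.1 to 112, and Cxcl2, a chemokine for neutrophils, at 201 against 26.2 to 93.0; both were chosen after their values were seen. The 12 neutrophil markers summed to 43.0 CPM in C26 6, with a median of 18.7 over the 8 mice. Between the list means of IL-1 and NF-kB signalling and of chemokines and adhesion r was 0.91 (0.72 without the 2 farthest mice), and with neutrophil markers it was 0.89 (0.47 without them). The acute phase list mean was also highest in C26 6 (15.48), next to C26 1 (15.46), whose neutrophil mean was 6.16 against 7.17 in C26 6. The part of neutrophils in these values was not tested. Erythroid markers summed to 425 (C26 1) to 1136 CPM (C26 2), which is hemoglobin mRNA of 0.0407% to 0.111% of reads. The median r of the 5 tested erythroid markers with the 5 scores lay between -0.26 and 0.13.

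**Figure D5:**
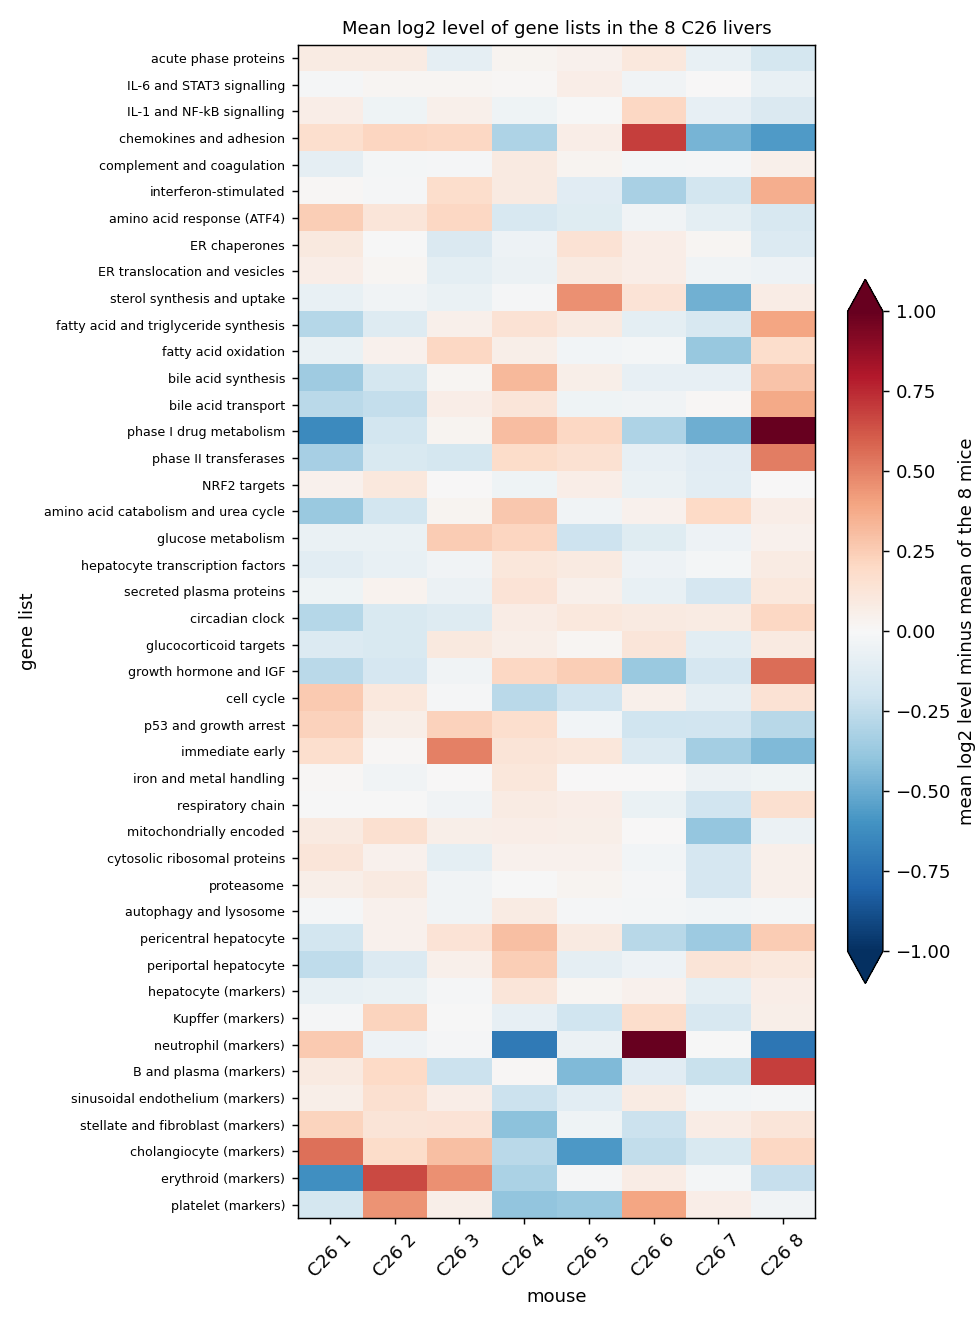
Mean log2 level of the tested members of 44 gene lists (rows; cell type marker lists are named as markers) in the 8 C26 livers (columns), as the difference from the mean over the mice; red is higher and blue lower, and colours end at 1 log2 unit. C26 8 is highest for phase I drug metabolism and low for chemokines, C26 6 is highest for neutrophil markers, and C26 5 and C26 7 are the extremes of sterol synthesis.

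Function lists were last compared with each other over the 946 pairs of 44 lists, as a description with no test. The median r was 0.06, and 15 pairs had r of at least 0.9 and 1 pair r of at most -0.9. Phase I drug metabolism and fatty acid and triglyceride synthesis had r = 0.99, and 0.97 without C26 8, although they share no gene. Both also went with the growth hormone and IGF list (r = 0.94 and 0.92, and 0.86 and 0.83 without C26 8). Bile acid synthesis went with complement and coagulation (r = 0.96, and 0.97 without C26 8) and with hepatocyte transcription factors (0.92, and 0.90). These r values were 0.83 or more among the other 7 mice. The complement and coagulation mean spanned only 1.13-fold over the 8 mice, and the transcription factor mean 1.16-fold. Bile acid synthesis, complement and coagulation, and transcription factors also went with hepatocyte markers (r = 0.85, 0.81 and 0.78), where the last pair shares 1 gene. With sinusoidal endothelium markers the same lists had r = -0.71, -0.76 and -0.86.

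Other list pairs had r of both signs. ER chaperones and ER translocation genes, which fold and export secreted proteins, had r = 0.92 with each other, and the translocation genes had r = -0.89 with glucose metabolism (-0.75 without the 2 farthest mice). Secreted plasma proteins went with the respiratory chain (r = 0.93). The p53 and growth arrest genes went with the immediate early genes (r = 0.90), and both list means were highest in C26 3 and lowest in C26 8. Periportal hepatocyte genes went with amino acid catabolism and the urea cycle (r = 0.95), with 7 genes in both lists. Mitochondrially encoded mRNAs (r = 0.87 with the proteasome) and cytosolic ribosomal proteins (0.88 with the proteasome) were lowest in C26 7, the library with the most positive length trend, whose part in them was not tested.

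Depth was fitted in the same way. In the limma fit on log2 total reads 0 genes were called and 153 (1.10%) stood at an unadjusted p under 0.05; edgeR was not run on depth.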

How the data were processed

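RNA of 8 whole livers was measured by sequencing. The authors deposited a normalized signal: per the submitters' processing notes, bcl2fastq 2.17, FastQC, Trimmomatic 0.38, STAR 2.6.1d and DESeq2 1.22.2 were used with build GRCm38. For the counting tool, the annotation and the strand setting nothing is stated by these notes or the labels. Dividing each column by its smallest step gave whole reads for 100% of values within a tolerance of 0.001. These reads gave the depth (19.9 M to 29.1 M per library), the shares of reads and the counts for edgeR 4.0.16. Averaged over genes with at least 20 reads in a pair of libraries, counting error was small beside the spread between mice. It was not assessed for single genes, and it weighs more at low values.

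Values were taken as log2(value + 1), so the slopes of low genes are understated. Tests covered the 13924 genes whose mean over the 8 mice reached 10; 383 of 22392 identifiers had no symbol and held at most 0.105% of reads. Each gene was regressed on a score, the mean log2 value of 4 genes, with limma 3.58.1 in R 4.3.3 (trended variance) and Benjamini-Hochberg adjustment over all genes tested; the score's own genes were left out. A call is an adjusted p under 0.05. Level per length (TPM) used the longest APPRIS principal transcript of GENCODE M21, otherwise the longest basic one, otherwise the longest. Single correlations had exact two-sided permutation tests over the 8 mice. Checks of the fit were run on simulated data.

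The scores, gene lists and markers were chosen with earlier results of these data known, and support nothing independently. Genes are named as the highest in level, share of reads or spread, as those with the largest slope or smallest p per score, and as up to 3 members of each list described by smallest p, with 12 further genes. The labels do not say whether samples shared a cage or day, so p-values measure the spread between these samples. Near-identical genes (Saa1 and Saa2, the Orm, Amy2a, Ces1, Serpina3, Cyp2a and Cyp2c families) are uncertain as single genes. Alternatives were another pseudocount, no filter, other scalings, edgeR, covariates, ranks and leaving out mice; those on transcript length and on Saa1 and Saa2 or A2m alone were chosen after seeing the data. A few genes, 1 of them in the sterol score, are not reported here by name.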

Additional observations from a re-analysis of the deposited data

Results flagged for a closer look

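The highest or lowest mouse was compared with the rest by its gap to the nearest mouse, as a share of the whole range. This was done for the 44 gene lists and 98 genes on the log2 scale, and for 8 library measures on their own scale. The gap passed the 95% critical value of Dixon for 8 samples in 18 of 150 cases. Chance passes about 1 in 20 groups that were not chosen by their values. That rate does not apply to the genes picked for their spread, which include the Amy2a genes, Cyp3a11, Car3, Ces1d, Ces1f and Slco1a1. It also does not apply to Apoc2, mt-Nd3, Rps21 and Nsdhl, which were picked by their fit to scores in which C26 7 was lowest. The gaps of all these genes are given as a description.

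C26 8 stood above the others in 5 genes of hepatocyte metabolism, with gaps of 0.874 for Cyp3a11, 0.802 for Ces1d, 0.699 for Car3, 0.625 for Ces1f and 0.594 for Slco1a1. The same liver was low for fibrinogen Fga, with a gap of 0.669. C26 5 stood above the others in Amy2a2, Amy2a3, Amy2a4 and Amy2a5, whose values are identical, with a gap of 0.812.

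C26 7 was low for the mitochondrially encoded list (0.602), the fatty acid oxidation list (0.538) and the proteasome list (0.529). It was also low for mt-Nd3 (0.661), Apoc2 (0.580), the sterol enzyme Nsdhl (0.566) and Rps21 (0.555). This library had the most positive length trend, and its part in these values was not tested. C26 4 was high for the iron and metal handling list (0.621), at a mean log2 level of 11.25 against 11.08 to 11.15.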

How the results depend on the processing

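No paired analysis was possible because all 8 mice belong to 1 group. With the acute phase score the count of called genes was 0 except for 5 with the transcript length trend as covariate and, leaving out 1 mouse, 0 to 3; the score of Saa1 and Saa2 alone gave 445. With the sterol score the 3 calls became 5 with no filter, 11 in edgeR, 6 after correction for transcript length, 0 on ranks and 0 without the 2 farthest mice, and ranged from 0 (without C26 5 or C26 7) to 5 leaving out 1 mouse. With the amino acid response score the 10 calls became 21 with no filter, 3 with depth as covariate, 17 on ranks, 0 without the 2 farthest mice, 5 after correction for length and 30 with the length trend as covariate, and ranged from 1 (without C26 1) to 34 (without C26 7) leaving out 1 mouse; without C26 2, 4, 5, 6 and 8 they were 2, 23, 5, 16 and 2. With the interferon score the 1 call became 5 with no filter, 13 in edgeR and 0 under TMM scaling, quantile normalization, depth as covariate, ranks and without the 2 farthest mice, and ranged from 0 to 6 leaving out 1 mouse. With the Saa score the 445 calls became 294 with no filter and 0 under quantile normalization, depth or length trend as covariate, ranks, correction for length and without the 2 farthest mice, and ranged from 0 (without C26 2, C26 6 or C26 7) to 338 leaving out 1 mouse. The cause was not tested.

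Some slopes of uncalled genes on the acute phase score changed sign. Under quantile normalization they were -0.76 for Alb, -0.65 for Hamp and -0.039 for Stat3. Without the 2 farthest mice they were -0.43 for Alb, -0.15 for Hamp, -0.45 for Stat3, -0.42 for Ttr, -0.040 for Fgf21 and 0.10 for Osmr. With the score of Lcn2 and A2m they were -0.16 for Hamp, 0.14 for Osmr, -0.025 for Stat3 and -0.43 for Ttr. With A2m alone they were -0.21, 0.29, -0.047 and -0.40 in that order. Osmr had 0.12 after correction for length and 0.28 with the length trend as covariate, and Ttr -0.82 and -0.96, with -0.00347 on ranks. With Saa1 and Saa2 alone Cyp7a1 had 1.39, Cyp8b1 1.46 and Cyp27a1 0.66. On the Saa score Reg3g had 0.26 without the 2 farthest mice. Leaving out 1 mouse, slopes ran from -0.93 to 0.59 for Alb, -1.67 to 0.22 for Cyp27a1, -0.35 to 1.66 for Fgf21, -0.16 to 1.05 for Hamp, -0.78 to 0.36 for Osmr, -0.049 to 0.15 for Stat3 and -1.09 to 0.65 for Ttr.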
